A study of Mus musculus with 4 samples.

Results

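Spots of the outer root sheath that held *Nestin* (*Nes*) transcripts were compared with spots of the same sheath that held none, in Visium spatial transcriptomes of mouse dorsal skin at P38. The sheath spots were chosen by a fixed rule. Spots with at least 250 detected genes were kept, and in each slice the top 15% by the mean of ln(1 + 10000 × UMIs / total UMIs) over *Slc45a3*, *Slc4a1*, *Atp2c2*, *AU018091*, *Gpx2*, *Gabrp* and *Nppc* were called sheath. A UMI (unique molecular identifier) stands for 1 captured transcript. Every sheath spot with at least 5500 UMIs was then thinned at random to 5500 UMIs, and a spot was Nestin-positive when at least 1 *Nes* UMI was among those drawn. This gave 128 Nestin-positive and 782 Nestin-negative spots, 910 in all, out of 6411 spots kept in the series. Another 51 of the 961 sheath spots were below 5500 UMIs and were left out.

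The 4 slices were sections of skin from 3 *Krox20-CreERT; R26-tdTomato* mice, all induced with 4-hydroxytamoxifen at P2, so that both groups of spots share genotype, treatment and age and lie in the same sections. In these mice a tamoxifen-inducible Cre under *Krox20* control switches on the red reporter tdTomato in *Krox20*-expressing cells and their descendants. The labels do not say which section came from which mouse, and the slices hold sections of the same mice. The p-values therefore measure the spread between slices, which may be technical, and not the spread between mice.

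*Nestin* encodes an intermediate filament protein of neural progenitors that is also used as a marker of hair follicle stem cells in and around the bulge. The outer root sheath is the outermost epithelial layer of the follicle, continuous with the epidermis above and reaching the bulb below. Its basal cells carry keratins 5 and 14, and the bulge, which houses the stem cells, is a part of it. *Krox20* (*Egr2*) encodes a zinc finger transcription factor of the upper follicle, and the relation of its domain to that of *Nestin* is the question these spots bear on. A Visium spot covers several cells, so a spot positive for both genes need not hold a cell that expresses both.

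The slices held 1462 to 1752 spots, with a median of 11662 to 14627 UMIs and 3540 to 3980 genes per spot. Nestin-positive spots numbered 27, 36, 31 and 34 in slices 1 to 4, against 212, 212, 184 and 174 Nestin-negative spots. The positive share was 11.3%, 14.5%, 14.4% and 16.3% of the sheath spots compared, and 10.04% ± 1.44 (SD, n = 4 slices) of spots outside the sheath thinned in the same way. Of the 128 positive spots, 122 owed the call to a single drawn *Nes* UMI and 6 to 2. The sheath score of the last spot inside the threshold was 0.751 to 0.825 across slices, and that of the first spot outside it 0.747 to 0.818. Each slice was divided by position into 3 strips along the skin. Pooled over slices, the positive share was 13.1%, 14.6% and 14.1% in these strips.

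**Figure D1:**
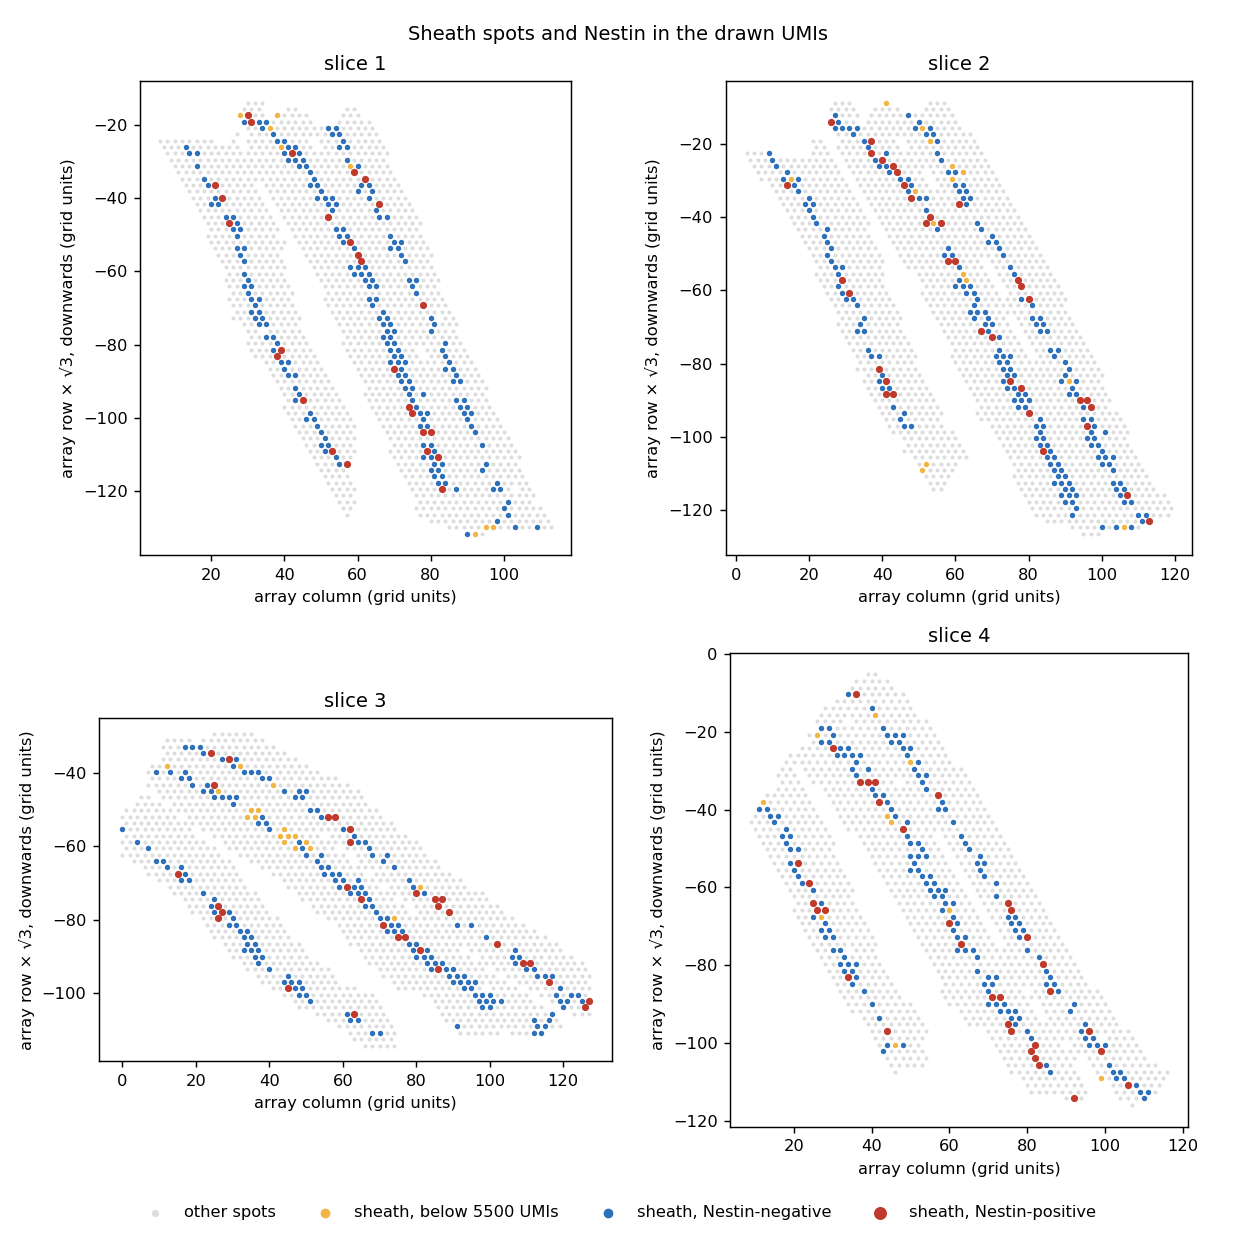
Position of every spot on the capture grid in the 4 slices, by array column and array row (grid units, the row scaled so that distances are true). Grey spots lie outside the sheath, yellow sheath spots were below 5500 UMIs, blue spots were Nestin-negative and red spots Nestin-positive. Red spots, 27 to 36 a slice, are scattered among the blue ones in every slice.

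The sheath label was checked against markers that the score did not use. *Krt14*, the basal keratin, was at 7622 ± 503 CPM (UMIs of a gene per 1000000 UMIs of the group, mean ± SD, n = 4 slices) in sheath spots and at 1544 ± 109 CPM in the other spots. *Krt5*, its partner, was at 4358 ± 270 against 1154 ± 163 CPM, and *Sox9*, a transcription factor of the sheath and bulge, at 562 ± 76.1 against 170 ± 30.8 CPM. These 3 genes and *Lgr5*, *Lhx2*, *Barx2* and *Krt6a* were higher in sheath spots in 4 of 4 slices. *Krt15*, a bulge keratin, went the other way, with 385 ± 28.1 CPM in sheath spots and 585 ± 81.4 CPM elsewhere, and so did *Krt75*, the companion layer keratin, with 769 ± 79.1 against 851 ± 50.0 CPM. Both were lower in sheath spots in 4 of 4 slices. The label thus held for the sheath keratins *Krt5* and *Krt14*, while *Krt15* went against it. *Egr2* was at 56.9 ± 5.62 CPM in sheath spots and at 29.96 ± 4.43 CPM elsewhere. *Lrig1*, an upper follicle marker, was at 106 ± 7.05 and 49.8 ± 9.74 CPM. The upper follicle list leaned the other way, at 4278 ± 465 and 4809 ± 644 CPM. Sheath spots also held transcripts of inner layers. The inner root sheath list summed to 33805 ± 4152 CPM in them and to 37189 ± 1544 CPM elsewhere. The outer root sheath list summed to 19873 ± 972 and 7268 ± 596 CPM. The hair shaft list was level between sheath and other spots, at 16592 ± 5420 and 16352 ± 3889 CPM.

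*Nestin* was a rare transcript. Over all UMIs it stood at 26.6 ± 4.25 CPM in sheath spots and at 18.0 ± 1.70 CPM in other spots, and was higher in the sheath in 4 of 4 slices. The gene (ENSMUSG00000004891) lies on chromosome 3 at 87971078-87980451, plus strand, in GRCm38. In the drawn UMIs the positive spots necessarily exceeded the negative ones, since that is how they were chosen. The UMIs that the thinning set aside give a measure of *Nestin* in the same spots that the split did not use. In these, *Nes* was at 22.5, 27.2, 25.1 and 27.7 CPM in the positive spots of slices 1 to 4 and at 21.5, 31.2, 22.4 and 27.9 CPM in the negative spots. The values overlapped, and positive spots were higher in 2 of 4 slices. The mean log2 ratio was 0.0060 ± 0.154 (SD, n = 4 slices; two-sided exact sign-flip test over slices, p = 1). With 4 slices that test cannot give a p below 0.13.

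The counts behind this are small. The positive spots held 26 *Nes* UMIs set aside and the negative spots 154, a ratio per UMI of 1.01 with an exact 95% interval of 0.637 to 1.53, which covers counting error only. The ratio depended on the random draw. It was 0.627 (0.336 to 1.08) with a second draw, 1.29 (0.820 to 1.96) with the third and 0.963 (0.591 to 1.51) when spots were thinned to 8000 UMIs, and each interval included 1. Positive spots were higher in 1 of 4 slices with the second draw, in 4 of 4 with the other and in 2 of 4 at 8000 UMIs. A measure that needs no draw, added after seeing the data, is the number of pairs of *Nes* UMIs in the same spot. The 961 sheath spots held 69 such pairs, against 66.2 if *Nes* UMIs had followed the depth of the spots alone. The ratio of observed to depth-given pairs was 1.27, 0.879, 1.02 and 1.08 in slices 1 to 4. At this depth the sheath spots with a drawn *Nes* UMI could not be shown to be richer in *Nestin* than those without, and the direction turned with the draw.

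Outside the sheath the pooled UMIs set aside held more *Nes* in positive spots, but the slices differed. The 494 positive spots held *Nes* at 33.7, 14.7, 31.6 and 23.7 CPM in the UMIs set aside in slices 1 to 4, and the 4444 negative spots at 16.1, 15.03, 16.02 and 18.5 CPM. Positive spots were higher in 3 of 4 slices, and slice 2 showed no difference (mean log2 ratio 0.59 ± 0.52; exact sign-flip test, p = 0.25). The pooled ratio was 1.64 (exact 95% interval 1.34 to 2.00), and 1.39 to 1.67 with the other draws. The log2 ratio outside the sheath exceeded that inside it in 4 of 4 slices, by 0.59 ± 0.38 (exact sign-flip test, p = 0.13, the smallest possible). This comparison was also added after seeing the data. The ratio of observed to depth-given pairs outside the sheath was 1.46, 1.06, 1.04 and 1.05 in slices 1 to 4. Its mean was 1.15 ± 0.20, against 1.06 ± 0.16 in the sheath.

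Neighbouring spots gave another reading. Their UMIs did not decide the group of the spot they touch, but the drawn UMIs of a neighbouring sheath spot decided that neighbour's own group. Sheath spots touching a positive spot held *Nes* at 23.3, 32.9, 32.6 and 43.8 CPM, and those touching a negative spot at 19.0, 29.2, 24.3 and 29.1 CPM. Neighbours of positive spots were higher in each slice, by 0.37 ± 0.18 on the log2 scale (exact sign-flip test, p = 0.13), although the ranges of the slices overlapped. With the other draws and with thinning to 8000 UMIs the difference was 0.14 to 0.25. Neighbours outside the sheath showed 26.8 ± 5.19 against 25.1 ± 2.12 CPM, higher in 2 of 4 slices (exact sign-flip test, p = 0.50).

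**Figure D2:**
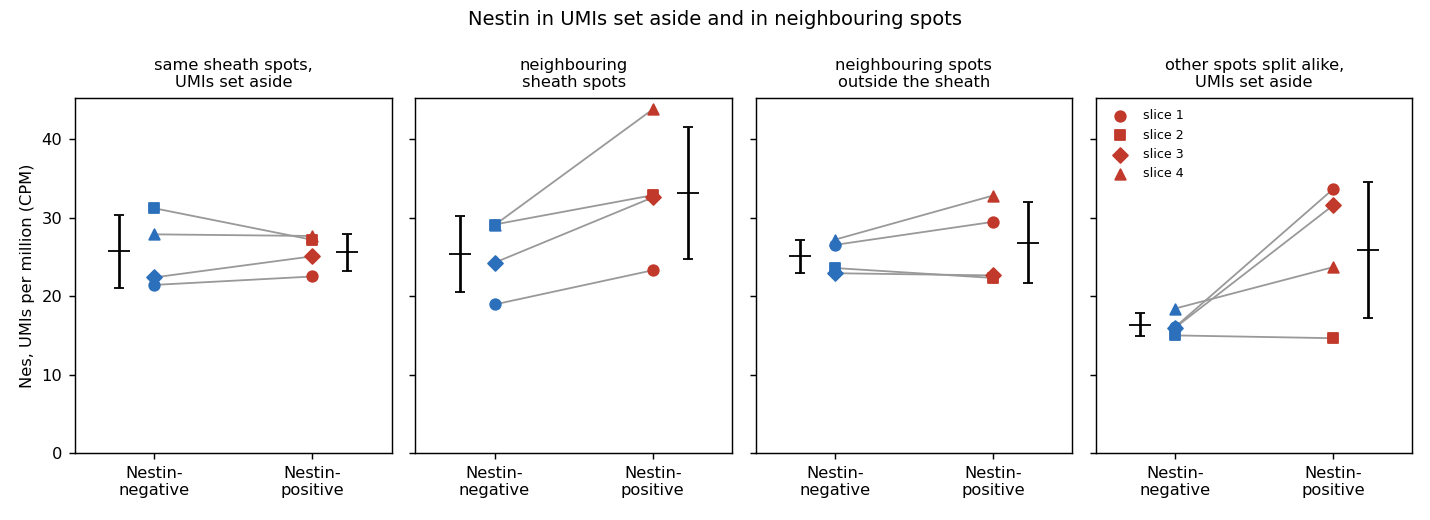
*Nes* level (CPM, linear axis from 0) for Nestin-negative (blue) and Nestin-positive (red) spots from left to right in the UMIs set aside from the same sheath spots, in neighbouring sheath spots, in neighbours outside the sheath, and in the UMIs set aside from spots outside the sheath split alike. Each symbol is a slice, lines join the groups of 1 slice, and black bars give the mean ± SD over 4 slices. In the UMIs set aside from the sheath spots the groups coincide at 25.6 and 25.8 CPM, while neighbouring sheath spots are higher beside positive spots in each slice.

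Depth differed between the groups by less than the spread of the slices. The median UMIs per spot before thinning were 12310 ± 1740 in positive and 12150 ± 1479 in negative spots, with a log2 ratio of 0.015 ± 0.15 (exact sign-flip test, p = 1). Positive spots lay 3.58 ± 0.0998 grid steps from the nearest spot rich in matrix and cell cycle genes and negative spots 3.68 ± 0.140, nearer in 4 of 4 slices by −0.10 ± 0.11 steps (exact sign-flip test, p = 0.13). The distances to spots rich in epidermal, hair shaft, muscle and adipocyte genes differed in mixed directions over slices (exact sign-flip tests, p = 0.375 to 0.875).

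Across all genes few separated the Nestin-positive from the Nestin-negative sheath spots. The drawn UMIs of each group were summed per slice, and edgeR's quasi-likelihood model was fitted to these 8 sums with the slice as a block. *Nes* and the 7 score genes were left out, since they chose the spots. Of 6756 genes fitted, 1 passed an adjusted p of 0.05, or 0.0148%. At an unadjusted p under 0.05 there were 338 genes, of which 175 were higher (2.59% of those fitted) and 163 lower (2.41%) in positive spots. In 4 of 4 slices 377 genes were higher (5.58%) and 515 lower (7.62%). The sums of the 4 slices did not overlap between groups for 100 genes that were higher (1.48%) and 127 that were lower (1.88%). The median log2 fold change of all genes was 0.0030. DESeq2 on the same genes called 0, with 54 at an unadjusted p under 0.05. On counts simulated from these sums, the edgeR test recovered 59.5% of genes changed by 1 on the log2 scale, 93.6% of those at 100 CPM or more, and 96.5% of genes changed by 2. The simulation gave all slices the same gene means and did not repeat the draw that set the groups. Recovery in the real sums may therefore be lower.

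**Figure D3:**
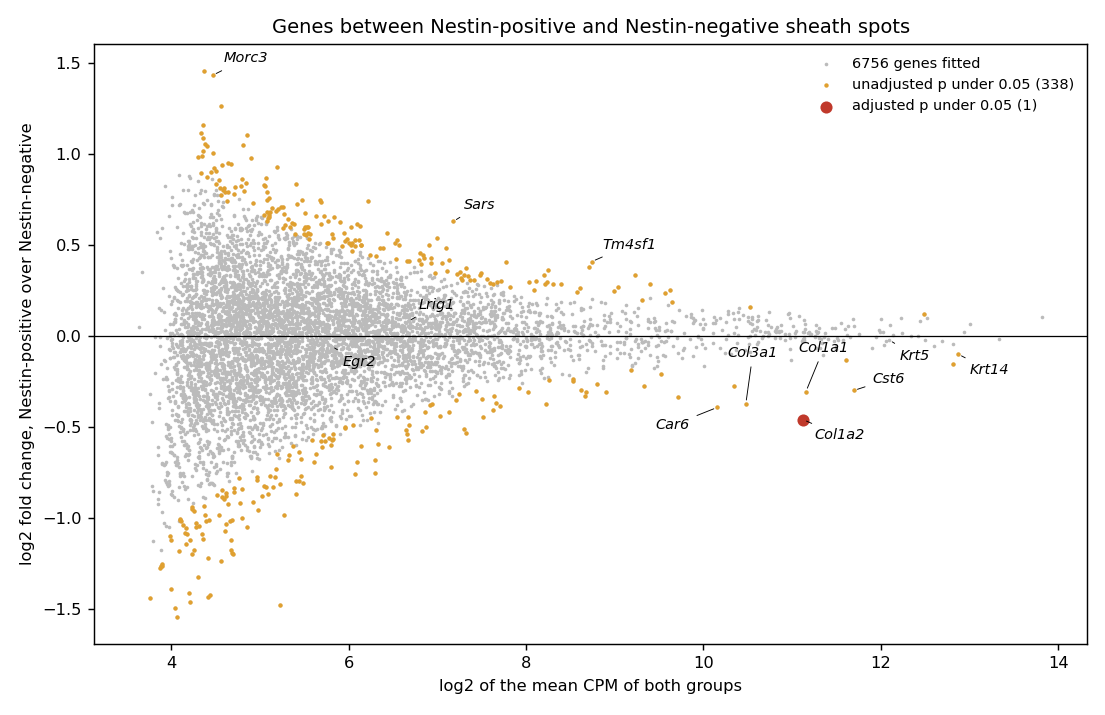
Log2 fold change of Nestin-positive over Nestin-negative sheath spots (vertical) against the log2 of the mean CPM (horizontal) for the 6756 genes fitted. Yellow genes had an unadjusted p under 0.05 and the red gene passed the adjusted threshold. *Col1a2* is the red point, and *Egr2*, *Lrig1* and *Krt5* lie near 0.

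The gene that passed was *Col1a2*, which encodes a chain of type I collagen, the main fibre of the dermis made by fibroblasts. It lies on chromosome 6 at 4504814-4541544, plus strand. *Col1a2* stood at 1747, 1675, 2509 and 1618 CPM in the positive spots of slices 1 to 4 and at 2506, 2655, 2644 and 2505 CPM in the negative spots. It was lower in positive spots in 4 of 4 slices, slightly so in slice 3, where the positive sum lay within the range of the negative ones. The log2 fold change was −0.46 (SE 0.073, edgeR adjusted p = 0.00117). The slices' own log2 ratios spread from −0.66 to −0.075 (SD 0.27, exact sign-flip test, p = 0.13). The SE of their mean, which is this SD divided by the square root of 4, is also wider than the SE that edgeR borrowed from all genes. The call was lost without slice 4 (adjusted p = 0.127), without the slice block (0.999), with DESeq2 (1.000) and with a second draw (0.773), and it was kept in 12 of 21 alternatives. *Col1a2* was lower in positive spots in each of those 21, by 0.18 to 0.60 on the log2 scale.

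Other matrix genes of fibroblasts leaned the same way without passing. *Col3a1*, the type III collagen, was at 1390, 1296, 1316 and 970 CPM in positive and 1683, 1856, 1392 and 1514 CPM in negative spots, and the groups did not overlap (log2 fold change −0.37, SE 0.078, edgeR adjusted p = 0.0778). *Col1a1*, the partner chain of *Col1a2*, was at 2055 ± 601 against 2510 ± 271 CPM and was higher in positive spots in slice 3. *Sparc*, a collagen-binding matrix protein, was at 1180 ± 272 against 1422 ± 76.0 CPM. *Col6a3*, a chain of type VI collagen, was at 47.2, 65.8, 70.5 and 48.2 CPM against 94.5, 102, 111 and 87.9 CPM, without overlap (−0.75, SE 0.22, adjusted p = 0.750).

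Of the 14 genes of the dermal fibroblast list, 12 passed the low-count filter. All 12 of these had a negative log2 fold change, beside 49.6% of all genes. Of the 12, 1 (*Col1a2*) was called, beside 0.0148% of all genes, and 6 had an unadjusted p under 0.05 and were lower, beside 2.41%. The median of the list was −0.39, beside 0.0030 over all genes. The summed level of the list was 6905 ± 1418 CPM in positive spots (5952 to 9003) and 8810 ± 269 CPM in negative spots (8519 to 9063). Slice 3 held the highest positive value, within the negative range. Because *Col1a2*, *Col3a1*, *Col1a1* and *Sparc* are themselves fibroblast markers, fewer fibroblasts under a spot and less collagen RNA per cell cannot be told apart.

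Markers of Schwann cells, the glia of peripheral nerves, were also counted. Of the 12 genes of that list 4 were fitted, and all 4 had a negative sign without passing. The summed list was 153 ± 51.4 CPM (80.8 to 192) in positive and 252 ± 37.1 CPM (214 to 301) in negative spots, lower in 4 of 4 slices and without overlap. Leaving out spots with any drawn UMI of selected vessel and nerve markers kept 16 to 21 positive and 91 to 121 negative spots a slice. The comparison reported had 27 to 36 and 174 to 212. In these fewer spots 4419 genes were fitted, 0 were called and *Col1a2* was at −0.18. The part of nerve or dermal cells in the *Col1a2* result was not tested.

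The remaining lower genes among the 10 with the smallest p did not pass. *Car6*, a secreted carbonic anhydrase, was at 989 ± 274 against 1291 ± 60.3 CPM, lower in 4 of 4 slices (log2 fold change −0.39, edgeR adjusted p = 0.291). It was called in 11 of 21 alternatives. Slice 4 had the widest gap in *Car6* (643 against 1343 CPM), and without it the log2 fold change was −0.20 (adjusted p = 1.000). *Gsn*, the actin-severing protein gelsolin, was at 750 ± 236 against 935 ± 99.4 CPM and *Krt77*, a keratin of sweat ducts and suprabasal epidermis, at 131 ± 62.6 against 191 ± 44.3 CPM. *Abcd3*, a peroxisomal transporter, was at 49.6 ± 9.77 against 84.6 ± 3.90 CPM without overlap. In the UMIs set aside from the same spots *Abcd3* was at 72.7 against 78.6 CPM (log2 fold change −0.064 instead of −0.76).

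**Figure D4:**
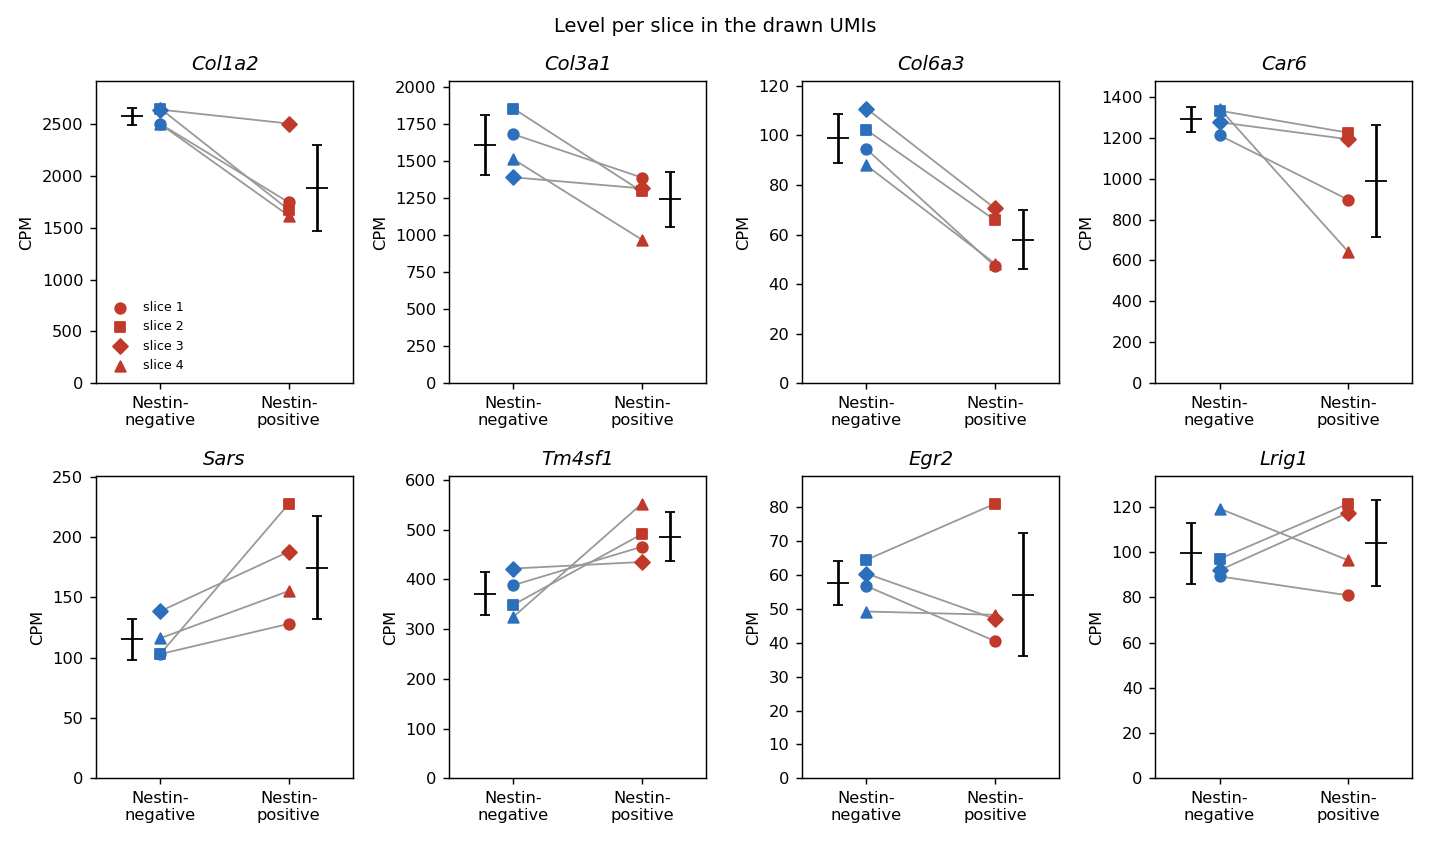
Level (CPM in the drawn UMIs, linear axes from 0) of 8 genes in Nestin-negative (blue) and Nestin-positive (red) sheath spots. Each symbol is a slice, lines join the groups of 1 slice, and black bars give the mean ± SD over 4 slices. *Col1a2*, *Col3a1*, *Col6a3* and *Car6* are lower in positive spots in 4 of 4 slices, *Sars* and *Tm4sf1* are higher, and *Egr2* and *Lrig1* go both ways. Only *Col1a2* passed the test.

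In the comparison reported no gene was called higher in Nestin-positive spots (0 of 6756), and 175 had an unadjusted p under 0.05 in that direction. The smallest p belonged to *Sars*, the seryl-tRNA synthetase, at 128, 228, 188 and 155 CPM in positive and 103, 103, 139 and 116 CPM in negative spots (log2 fold change 0.63, SE 0.16, edgeR adjusted p = 0.416). In the UMIs set aside from the same spots its sign turned (−0.037). *Tm4sf1*, a tetraspanin-like membrane protein, was at 465, 491, 435 and 552 CPM against 388, 349, 422 and 325 CPM, without overlap (0.41, SE 0.11, adjusted p = 0.571). The *Tm4sf1* value depended on the draw and was 0.067 with the second draw, 0.15 with the third and 0.19 at 8000 UMIs. It was 0.27 in the UMIs set aside, and it was called without slice 3 (0.52, edgeR adjusted p = 0.0107) and with all UMIs of the same spots (0.33, adjusted p = 0.0492). The others were *Morc3*, *Ptges3l*, *Cnfn*, *Slc35a2*, *Dcp2*, *Tpd52*, *Tada1* and *Krtap17-1*, with log2 fold changes of 0.28 to 1.45 and adjusted p of 0.702 to 0.839. Of these *Morc3*, *Ptges3l* and *Slc35a2* rested on 21 to 23 UMIs in the positive spots.

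Some alternatives did call genes higher, and the genes below are named because of those calls, after their values were seen. There were 5 higher calls with thinning to 8000 UMIs, 6 with Nestin-positive defined by all UMIs, 2 with all UMIs of the same spots, 1 with the third draw, 1 with the top 10% of spots, 1 without slice 2 and 4 without slice 3. *Hba-a1*, a globin of red blood cells, was called in 5 of these, with log2 fold changes of 0.34 with Nestin-positive by all UMIs, 0.59 with the third draw, 0.93 at 8000 UMIs, 0.54 without slice 2 and 0.51 without slice 3. In the comparison reported it was at 816, 278, 323 and 498 CPM in positive and 384, 323, 348 and 368 CPM in negative spots, higher in 2 of 4 slices (log2 fold change 0.38, edgeR adjusted p = 0.839). The globins *Hbb-bs* (0.56) and *Hba-a2* (0.53) and *Retnla*, a secreted resistin-like protein (0.97), were also called at 8000 UMIs. *Retnla* was called as well with all UMIs of the same spots (0.91, edgeR adjusted p = 0.0277) and with Nestin-positive by all UMIs (0.98, adjusted p = 7.1e-07). As reported *Hbb-bs*, *Hba-a2* and *Retnla* were at 0.21, 0.016 and 0.40 without passing. *Hba-a2* and *Retnla* turned negative with the second draw (−0.017 and −0.27), as did *Hba-a2* with the third (−0.14).

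*Krox20* did not differ detectably between the groups. The groups themselves did not differ detectably in *Nes* in the UMIs set aside (ratio 1.01, 0.637 to 1.53). This comparison therefore cannot decide how *Krox20* relates to *Nestin*. *Egr2* (chromosome 10, 67535475-67542188, plus strand) stood at 40.5, 81.0, 47.0 and 48.2 CPM in positive spots and at 56.7, 64.4, 60.4 and 49.2 CPM in negative spots. The positive slices lay on both sides of the negative ones. The log2 fold change was −0.06 (SE 0.25, edgeR adjusted p = 0.995). Its sign was negative in 10 and positive in 10 of the 20 alternatives in which it was fitted, from −0.27 to 0.33, and it was called in 0. A drawn *Egr2* UMI was found in 31 of 128 positive spots and in 207 of 782 negative spots, or 23.5% ± 9.01 and 26.4% ± 1.94 over slices (exact sign-flip test, p = 0.50). *Lrig1*, a stem cell marker of the upper follicle and junctional zone, was at 104 ± 18.9 and 99.4 ± 13.6 CPM (log2 fold change 0.08, SE 0.19, adjusted p = 0.990), higher in 2 of 4 slices. Of the 11 genes of the upper follicle list 9 were fitted and 0 called, with a median log2 fold change of −0.18. Of the 9, 6 had a negative sign, beside 49.6% of all genes. *Cst6* (−0.30, edgeR adjusted p = 0.839) was lower in 3 of 4 slices and was called lower in 9 of 21 alternatives. *Plet1* (−0.33, adjusted p = 0.938) was lower in 4 of 4 slices, and at −0.69 in the UMIs set aside (adjusted p = 0.0322). The tdTomato transcript had a drawn UMI in 0 of 128 positive spots, which allows a share of up to 2.34%, and in 7 of 782 negative spots, too few to compare.

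Markers of the sheath itself had mixed signs. All 15 genes of the outer root sheath list were fitted, 8 with a positive and 7 with a negative sign, and 0 were called in either direction. Their median log2 fold change was 0.0090. At an unadjusted p under 0.05, 1 of the 15 was higher and 1 lower. *Krt5* was at 4331 ± 381 against 4415 ± 232 CPM and *Sox9* at 595 ± 130 against 566 ± 89.2 CPM. *Krt14* was at 7229 ± 605 against 7786 ± 564 CPM, lower in 4 of 4 slices with an unadjusted p of 0.0481 (log2 fold change −0.10). Of the 7 genes of the companion layer list, 6 were fitted and 0 called, 4 with a positive and 2 with a negative sign. Their median was 0.082, and 0.030 in the UMIs set aside. *Krt75* was at 855 ± 137 against 725 ± 88.9 CPM, higher in 3 of 4 slices without passing (log2 fold change 0.25). *Krt75* was at 0.27 in the UMIs set aside, 0.15 and 0.17 with the other draws and 0.18 at 8000 UMIs. Of the 20 genes of the bulge and lower follicle stem list, 17 were fitted and 0 called, with a median of 0.032. *Cd34*, a bulge stem cell marker, was at 92.4 ± 32.1 against 118 ± 15.8 CPM, higher in positive spots in 1 of 4 slices. The list of 16 stem cell factors linked to *Nestin* gave 9 fitted genes and 0 calls. Among them *Notch1* was at 174 ± 47.8 and 183 ± 15.1 CPM and *Hes1*, a Notch target, at 113 ± 49.6 and 117 ± 22.1 CPM.

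Nestin assembles with other intermediate filament proteins such as vimentin. Of 14 intermediate filament genes other than keratins 4 were fitted (*Vim*, *Des*, *Lmna* and *Lmnb1*), and all 4 had a negative sign, beside 49.6% of all genes, without passing. *Lmna*, lamin A/C, was at 754 ± 125 and 769 ± 71.6 CPM, higher in positive spots in 3 of 4 slices (log2 fold change −0.031), with 0.13 in the UMIs set aside. *Des*, the muscle filament desmin, was at −0.24 and turned positive with the other draws (0.16 and 0.45). *Vim*, which encodes vimentin and is abundant in fibroblasts, was at 154 ± 31.0 against 192 ± 12.3 CPM, lower in 4 of 4 slices (log2 fold change −0.31, SE 0.15, edgeR adjusted p = 0.938).

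In the lists of layers inside the sheath 0 genes were called, and 50.4% of all genes had a positive sign. In the inner root sheath list, 9 of 11 fitted genes had a positive sign, and 3 of the 11 (*Krt73*, *Krt72* and *Krt27*) had an unadjusted p under 0.05 and were higher, beside 2.59% of all genes. *Krt73* was at 346 ± 45.2 against 285 ± 40.8 CPM and *Tchh*, trichohyalin, at 15028 ± 3284 against 13922 ± 2192 CPM. The matrix lineage list summed to 750 ± 54.8 against 679 ± 57.1 CPM and the matrix and cell cycle list to 526 ± 67.9 against 473 ± 28.6 CPM, each higher in 4 of 4 slices by 0.15 on the log2 scale. *Mki67*, the proliferation marker, was at 54.9 ± 14.6 against 36.0 ± 9.23 CPM (adjusted p = 0.938). In the UMIs set aside the median log2 fold change of the matrix and cell cycle list was −0.0023 instead of 0.24, that of the inner root sheath list 0.057 instead of 0.098, and that of the hair shaft list −0.036 instead of 0.045. The endothelial list summed to 463 ± 130 against 443 ± 57.9 CPM and the pericyte list to 164 ± 35.3 against 192 ± 21.3 CPM. Across the 26 lists the only member called was *Col1a2*.

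A split on all UMIs, without thinning, used every *Nes* UMI but also followed depth. It gave 270 positive and 691 negative sheath spots, with a median of 13632 ± 1236 and 11193 ± 1581 UMIs per spot, deeper for positive spots in 4 of 4 slices. Here edgeR called 47 of 9634 genes (0.488%), 6 higher and 41 lower (0.426%). Of the lower genes, 6 were on the fibroblast list (*Col1a1*, *Col1a2*, *Col3a1*, *Col6a1*, *Dcn* and *Sparc*). Another 4 were on the upper follicle list (*Cst6*, *Klk10*, *Krt79* and *Plet1*), 4 on the epidermal list (*Krt77*, *Krtdap*, *Lor* and *Sbsn*), and 2 on the Schwann cell list. The adipocyte list (*Car3* and *Cfd*) and the skeletal muscle list (*Acta1* and *Myh1*) held 2 each and the sebaceous list 1 (*Scd1*). No member of the sheath, bulge, inner root sheath or hair shaft lists was among the 47, although *Krtap6-3*, a hair keratin-associated protein on none of the lists, was called lower (−0.34, edgeR adjusted p = 0.0195). The part of depth in these calls was not tested.

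The level of *Nestin* within the sheath was also compared by distance from the epidermis. In sheath spots at least 3 grid steps from the nearest spot rich in epidermal genes, *Nes* stood at 24.1, 32.8, 30.3 and 38.4 CPM in slices 1 to 4 over all UMIs. In sheath spots 2 or fewer steps away it stood at 13.8, 23.8, 17.9 and 12.1 CPM. The far spots were higher in each slice, and the 2 ranges did not overlap (log2 ratio 0.92 ± 0.52, exact sign-flip test over slices, p = 0.13). There were 631 far and 330 near sheath spots. The Nestin-positive share of the thinned spots was 16.4% ± 3.60 far from and 9.05% ± 4.39 near to the epidermis. Slice 3 was nearly level at 14.7% and 14.1%, and slice 4 had the widest gap at 21.6% and 5.80%. Far spots were also deeper in 4 of 4 slices, with a median of 14351, 12175, 11741 and 11280 UMIs against 12942, 10988, 9596 and 10135 UMIs for near spots, and the part of depth was not tested. The 2-step limit was chosen after seeing the data.

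Sheath spots were also ranked by each marker list and divided at the median of each slice, a comparison added after seeing the data. *Nes* over all UMIs was lower in the spots above the median in 4 of 4 slices for 7 of 26 lists. The widest was the dermal fibroblast list, with 21.02 ± 2.62 CPM above and 31.8 ± 7.75 CPM below the median. It was followed by the lists of intermediate filaments other than keratins (22.4 ± 5.75 and 31.1 ± 2.68 CPM), immune genes (22.1 ± 2.79 and 31.5 ± 6.23 CPM), upper follicle (21.9 ± 2.86 and 31.2 ± 8.54 CPM) and Schwann cell genes (22.6 ± 4.24 and 30.7 ± 4.97 CPM). For the adipocyte and skeletal muscle lists the log2 ratios were −0.36 ± 0.36 and −0.32 ± 0.17. *Nes* was higher above the median in 4 of 4 slices for the companion layer list (28.6 ± 5.94 and 24.4 ± 2.46 CPM) and for the WNT, BMP, hedgehog and FGF list (27.4 ± 4.18 and 25.7 ± 4.39 CPM). It did not lean one way for the bulge and lower follicle list (26.5 ± 3.95 and 26.7 ± 4.95 CPM). The 26 lists share spots, and with 4 slices the p of each was 0.13 or more.

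**Figure D5:**
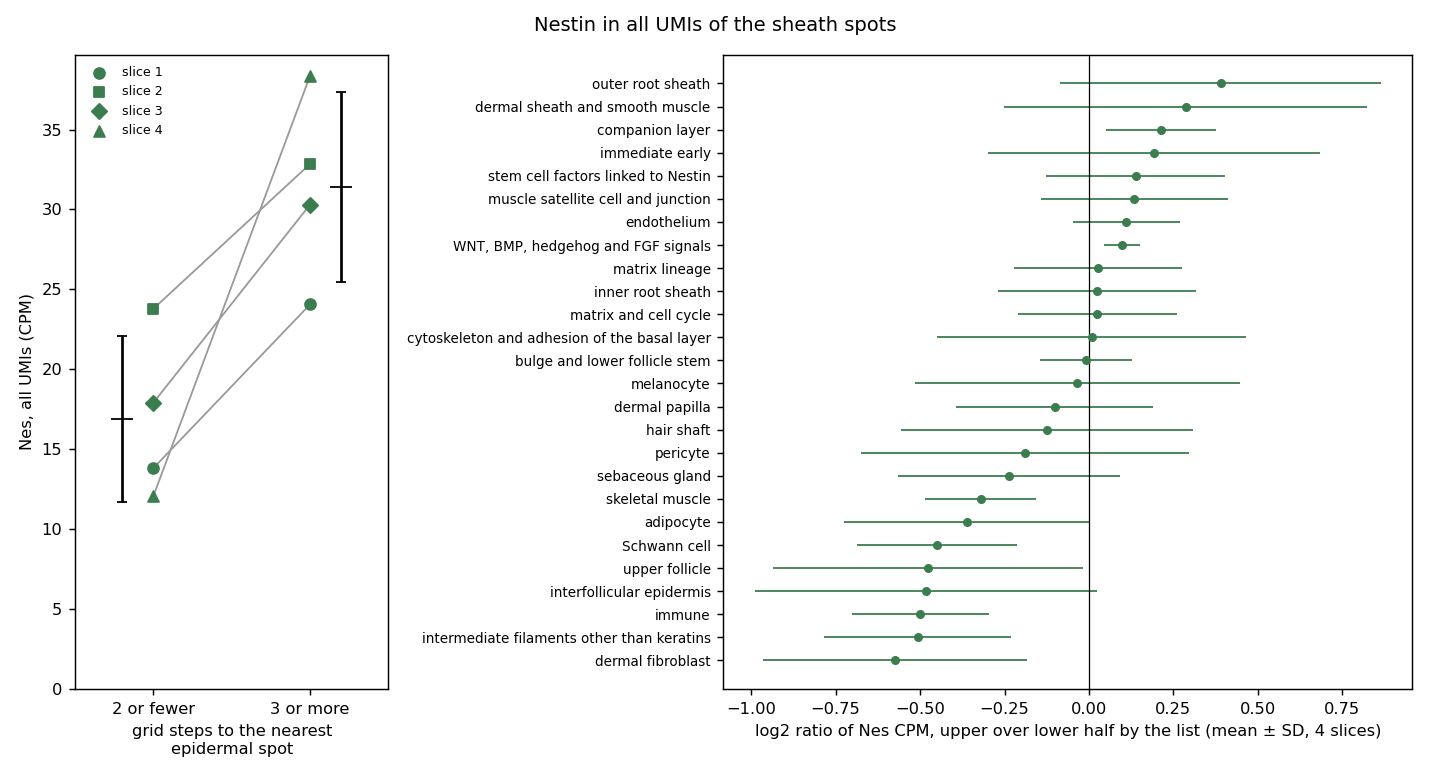
*Nes* level over all UMIs of the sheath spots. Left, CPM in sheath spots 2 or fewer and 3 or more grid steps from the nearest epidermal spot, with a symbol per slice and the mean ± SD in black. Right, the mean log2 ratio ± SD over 4 slices of *Nes* CPM in sheath spots above over those below the slice's median of each marker list. Far spots are higher in each slice, and the fibroblast list has the lowest ratio at −0.57.

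The gene contrast between Nestin-positive and Nestin-negative spots was set against the same contrast outside the sheath, in 1 edgeR model over 9057 genes. Outside the sheath, 296 genes were called (3.27%), 237 of them higher in positive spots (2.62%). The number called there was 29 without the slice block and 141 to 242 when a slice was left out. That contrast rests on 494 positive and 4444 negative spots of all other tissues, so its count cannot be set directly against that of the sheath. The contrasts in and outside the sheath differed for 8 genes (0.0883%), each with an adjusted p of 0.0477. *Hp*, the haemoglobin-binding haptoglobin, had a log2 fold change of −0.35 in the sheath and 0.41 outside, and *Psors1c2* at 0.086 and 0.58. The hair shaft genes *Krt33a*, *Krt81* and *Krtap16-1* were higher in positive spots outside the sheath (0.56, 0.59 and 0.75) and near 0 or slightly lower within it (−0.037, −0.019 and −0.13). *Ptma*, prothymosin alpha, had the reverse pattern, lower outside (−0.37) and at 0.086 within. None of the 8 passed with library size alone or without the slice block, and 1 to 5 genes passed when a slice was left out.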

How the data were processed

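Per the file headers and the labels, the authors processed Visium libraries with Space Ranger 2.0.1 (mm10, with tdTomato added) and deposited UMI counts per gene and spot over tissue for 4 slices. The authors left out a further section for its distorted shape, and which spots it held is not given in the sources used here. CreERT was not analysed here. Of 32286 features, 32235 matched GENCODE M21 (GRCm38) by identifier, which gave the coordinates. Slices shared 61.9% to 85.0% of spot barcodes, all at the same grid position, since slides share 1 barcode layout. The members, marker lists and tests were chosen with earlier results of these data known.

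Spots below 250 genes (9 of 6420) were dropped. Each spot with 5500 or more UMIs was thinned without replacement with a fixed seed. UMIs were summed per slice and group, giving 148243 to 1164232 UMIs per sum, and tested with edgeR 4.0.16 (R 4.3.3; filterByExpr, TMM, quasi-likelihood, Benjamini-Hochberg) with the slice as block, since both sums of a slice come from the same sections. The deviations of paired sums correlated at 0.0616 to 0.152. Values over slices were tested with exact two-sided sign flips. CPM are UMIs per 1000000 UMIs of a group and carry no TMM scaling. The test was checked on simulated data. Genes named were *Nes*, *Egr2*, *Lrig1*, tdTomato, the score genes, the 10 smallest p in each direction where fewer were called, in each list the most abundant members and those called, and the 5 smallest p of the difference between sheath and other spots. Other names, such as *Krt33a* and *Krt81*, were chosen after their values were seen. Alternatives were DESeq2 1.42.0, no TMM, no filter, each slice left out, no block, other draws, depths, thresholds and sums per strip. Distance was counted in steps on the hexagonal grid to the nearest spot among the top 10% for a list. The 3 strips were cut by position and need not match the sections. *Xist* made up 74.8% to 85.5% of the UMIs of *Xist* and Y-linked genes in strip 3 across slices. It made up 8.96% to 14.8% in strip 1 and 10.1% to 13.5% in strip 2. The sex of the mice is not in the labels. Intervals cover counting error only. One gene that met these rules is not reported here.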

Additional observations from a re-analysis of the deposited data

Results flagged for a closer look

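Some values stood apart from the other slices of their group. *Nes* in the neighbours of Nestin-positive spots was 37.6 CPM in slice 4, above the other 3 slices. The median number of genes per Nestin-negative spot was 3921 in slice 1. *Col1a2* in positive spots was 2509 CPM in slice 3. These 3 came from 69 groups of 4 slices examined, and about 1 in 20 groups is picked out by chance.

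The contrast of Nestin-positive against Nestin-negative spots differed between sheath spots and other spots for 8 genes by a test of the difference itself, and 7 of them are given here. On the log2 scale the difference, sheath minus other, was −0.89 for *Krtap16-1*, −0.78 for *Hp*, −0.51 for *Psors1c2*, 0.44 for *Ptma*, −0.33 for *S100a6*, −0.60 for *Krt33a* and −0.61 for *Krt81*.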

How the results depend on the processing

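The number of genes called between Nestin-positive and Nestin-negative sheath spots, 1 in the comparison reported, was 0 with DESeq2, 2 with library size alone, 9 without a low-count filter, 0 with no replicate block, 14 with all UMIs of the same spots, 6 with the UMIs set aside, 47 with Nestin-positive defined by all UMIs, 16 with thinning to 8000 UMIs, 2 and 7 with the other draws, 6 and 0 with the top 10% and 20% of spots, 5 with sums per strip, 0 with sums per slice and strip, 0 and 0 in the spots below and above the median of the hair shaft list, and 0 without spots holding vessel or nerve marker UMIs. It was 0 to 13 when a slice was left out (1, 4, 13 and 0 for slices 1 to 4). With no replicate block *Egr2* was at −0.062. The *Egr2* log2 fold change turned positive with all UMIs (0.18), the UMIs set aside (0.33), Nestin-positive by all UMIs (0.036), 8000 UMIs (0.17), the other draws (0.082 and 0.13), the top 10% (0.0081) and without vessel or nerve marker spots (0.079), and ranged from −0.27 to 0.032 when a slice was left out. *Nes* in the UMIs set aside had a log2 ratio of −0.83 and 0.39 with the other draws, and of −0.047 to 0.074 when a slice was left out. The log2 ratio of genes per spot was −0.12 with a further draw and 0.056 with 8000 UMIs. The difference in sheath neighbours per spot, −0.090 as drawn, was 0.0019 and −0.16 with the other draws, 0.0069 with 8000 UMIs and −0.025 with the top 10%. The genes that differed between sheath and other spots, 8 as reported, were 0 with library size alone, 42 without a filter, 0 with no replicate block and 1 to 5 when a slice was left out. Signs turned for *Sars* (−0.037), *Tpd52* (−0.20) and *Krtap17-1* (−0.051) in the UMIs set aside and for *Morc3* (−0.59), *Dcp2* (−0.34) and *Krtap17-1* (−0.093) with 8000 UMIs. Of 526 values of single genes, lists, positions and counts of genes under the alternatives, 410 were rated the same. For single genes this meant the same direction and side of the threshold. For lists and positions it meant a shift below the SD, and for counts of genes a change within a set factor. Of the rest, 47 were values of a gene that passed the threshold in that alternative but not as reported. In 53 values a gene that passed as reported no longer did. The same gene can be counted under several alternatives. Another 10 values moved beyond their limit, and 6 turned sign (those just given). The causes were not tested. Thinned sheath spots held 0.147 *Nes* UMIs on average, and 71 of the 128 positive spots were positive again in a second draw.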
